A study of Homo sapiens with 9 samples.

Results

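The YAP target genes examined here are 10 genes selected by symbol: CTGF, CYR61, ANKRD1, AMOTL2, AJUBA, LATS2, AXL, TEAD1, YAP1 and WWTR1. All 10 were found among the 58735 genes of the deposited table under the older symbols that the table uses, and the rule used no value from it, although the list was drawn up with earlier results of these data known. RNA-seq had been performed in KHM-5M, an established human thyroid cancer cell line that the study describes as carrying both a BRAF mutation and TERT promoter mutations, so all groups share these alleles. The cells were kept for 24 h with the solvent DMSO or with YK-4-279 at 0.3 μM or 1 μM, and each group has 3 samples, 9 in all. YK-4-279 is a small molecule introduced against the fusion protein EWS-FLI1 and used by the study as an inhibitor of ETS transcription factors. The study's methods speak of 2 biological replicates per condition, whereas the labels give 3 samples and do not say whether these came from separate cultures, so p-values measure only the spread between these samples, part of which may be technical.

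YAP1 and its paralog TAZ, which is encoded by WWTR1, are transcriptional coactivators that do not bind DNA themselves and reach their target genes mainly through TEAD factors such as TEAD1. In the Hippo pathway the kinases STK3 and STK4 activate LATS1 and LATS2, which phosphorylate YAP1 and TAZ and keep them in the cytoplasm at high cell density or low mechanical tension. CTGF and CYR61, which encode secreted matricellular proteins, are the most widely used readouts of YAP activity, and ANKRD1 is another. AMOTL2, AJUBA and LATS2 are targets that act back on the pathway, and AXL is a receptor tyrosine kinase and a known YAP target in several cancers. The list therefore holds 7 target genes and 3 genes for the coactivators and their DNA-binding partner, and messenger RNA says nothing of where YAP1 or TAZ protein was in the cell.

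The 10 genes were all expressed and changed little. CYR61 was the only member that passed the test, and it fell by 18.0% at 1 μM. CTGF, the closest relative of CYR61 on the list, fell by 5.1% in the same fit and did not pass, and at 0.3 μM no member passed. For each of the 10 genes, in all 3 comparisons, the 95% interval of the fold change lay inside 1.5-fold in either direction.

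TEAD factors recognise the letters GGAATG, and promoter sequences are shown because they show which of these genes carry those letters close to their start. Windows of 250 bases upstream of each start were taken from RefSeq on GRCh38.p14. Of the 10 members 8 matched an entry, CTGF under its current symbol CCN2, and the entries for CYR61 and TEAD1 were not matched. The 8 genes have 12 windows, and 6 of the genes hold GGAATG in at least 1 window. Both strands were searched (CATTCC on the opposite strand). AMOTL2, AJUBA, AXL and WWTR1 have 2 windows each. For AMOTL2, AJUBA and AXL the window at the outer end of the gene holds 0 copies, and the copy lies in the window inside the gene. CTGF holds 3 copies and ANKRD1 holds 2, while LATS2 and WWTR1 hold none in these windows. Both WWTR1 windows lie inside the gene by the deposited coordinates, so the outer start of WWTR1 was not searched. Each sequence below is written 5′ to 3′ on the strand of its gene with the TEAD letters in capitals. The first is the whole CTGF window, on the minus strand at chr6:131951373-131951622, where GENCODE 44 places it outside CTGF and inside the body, but no exon, of the non-coding gene LINC01013 on the other strand. The second is the whole ANKRD1 window, on the minus strand at chr10:90921088-90921337, with no annotated gene in GENCODE 44. By the deposited coordinates, however, ANKRD1 begins at chr10:90921276, within this window, so the copy nearer the RefSeq start lies inside the gene as counted. The others are 30-base stretches around the single copy in AMOTL2 (minus strand, chr3:134374499-134374528, in an exon of an AMOTL2 transcript), AJUBA (minus strand, chr14:22976884-22976913, in an untranslated exon of an AJUBA transcript), AXL (plus strand, chr19:41226531-41226560, in an AXL intron) and YAP1 (plus strand, chr11:102110273-102110302, upstream of YAP1 and in an exon of a gene on the other strand).
CTGF: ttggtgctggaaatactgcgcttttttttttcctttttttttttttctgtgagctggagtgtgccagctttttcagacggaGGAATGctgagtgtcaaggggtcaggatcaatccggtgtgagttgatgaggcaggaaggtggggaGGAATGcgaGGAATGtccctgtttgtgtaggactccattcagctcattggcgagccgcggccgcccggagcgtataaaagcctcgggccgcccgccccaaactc
ANKRD1: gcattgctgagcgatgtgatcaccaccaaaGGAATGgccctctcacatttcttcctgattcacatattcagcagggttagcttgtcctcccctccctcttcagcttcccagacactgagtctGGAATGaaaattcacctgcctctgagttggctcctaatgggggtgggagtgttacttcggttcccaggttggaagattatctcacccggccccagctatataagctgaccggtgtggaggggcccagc
AMOTL2: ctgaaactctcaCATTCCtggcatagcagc
AJUBA: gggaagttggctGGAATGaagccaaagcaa
AXL: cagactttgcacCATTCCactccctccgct
YAP1: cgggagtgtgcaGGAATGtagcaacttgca

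The CTGF copies begin 169, 104 and 95 bases upstream of the RefSeq start and the ANKRD1 copies 220 and 128 bases upstream. Of all 35116 RefSeq windows of the same length 11.9% held GGAATG on either strand, 0.94% held at least 2 copies and 0.0826% at least 3, and counted by gene 14.3% of 27305 genes held it. The single copies lie 69 bases upstream of a start in AMOTL2, 59 in AJUBA, 212 in AXL and 162 in YAP1. Those of AMOTL2 and AXL are on the opposite strand. In AMOTL2, AJUBA and AXL that start is the one inside the gene. GGAATG contains GGAA, the core of ETS sites, so an ETS site written as CCGGAA can overlap it. CCGGAA was found in 1 of the 8 genes, AXL, against 17.2% of all genes (14.5% of windows). It lies in the AXL window inside the gene, outside the 30 bases printed above, so it does not overlap the TEAD letters there. The AP-1 letters TGANTCA were found in 1 gene, ANKRD1, against 8.06% of genes (6.57% of windows). The CArG box was found in 0 of the 8 genes, against 1.44% of genes (1.16% of windows). These matches describe letters in a window and no binding was measured.

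The depth was 16903251 to 18238884 counts per sample, so that 3 counts, taken as the floor of detection, corresponded to between 0.164 and 0.177 CPM, the counts scaled to equal library size. No member came near it, since the lowest count was 164, for ANKRD1. The labelled tissue was checked with markers in FPKM, which divide counts by library size and gene length. PAX8 and HHEX, which mark thyroid cells, were at 21.6 to 27.7 and 5.12 to 7.49 FPKM, but these were the only 2 of 8 thyroid markers with a mean over 1 FPKM. Of 6 epithelial markers 5 were over 1 FPKM, with KRT8 at 183 to 204 FPKM. EPCAM was at 2.06 to 2.86 FPKM and KRT19 at 1.56 to 2.57 FPKM. The other epithelial marker, CDH1, was nearly absent, at 0 to 0.0467 FPKM. Endothelial markers summed to between 0.515 and 0.737 FPKM, with 0 of 4 over 1. Markers of immune cells, 0 of 4 over 1, summed to 0.254 to 0.663 FPKM in DMSO and 0.940 to 1.07 FPKM at 1 μM, nearly all of it CD14 at 1 μM, while PTPRC and CD3E were at most at 0.0203 FPKM. Fibroblast markers, 2 of 5 over 1, summed to 45.8 to 63.9 FPKM in DMSO and 39.3 to 45.2 FPKM at 1 μM. The 2 were COL1A1, at 32.5 to 56.4 FPKM over all samples, and PDGFRB, at 4.93 to 8.10 FPKM. COL1A2, COL3A1 and PDGFRA were at most at 0.172 FPKM. Between DMSO and 1 μM, where CYR61 was called, neither the immune nor the fibroblast sums overlapped. Between 0.3 μM and 1 μM, where CYR61 was also called, the immune sums did not overlap (0.242 to 0.614 FPKM at 0.3 μM) and the fibroblast sums did (40.6 to 58.6 FPKM at 0.3 μM). Among all genes tested, the groups did not overlap for 37.4% between DMSO and 1 μM and for 31.9% between 0.3 μM and 1 μM. The part of these markers in the CYR61 result was not tested. All samples are of 1 cell line. In its bulk RNA, fewer cells expressing a gene and less of its RNA per cell cannot be told apart.

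Between the genes, mean levels in DMSO ran from 5.54 to 533 FPKM. CYR61 was the highest, at 533 ± 17.0 FPKM (SD, n = 3), the 39th most abundant of 19951 protein-coding genes. AXL followed at 222 ± 20.7 FPKM (SD, n = 3), at place 118, and CTGF at 116 ± 8.29 FPKM (SD, n = 3), at place 263. These secreted and receptor products stood well above the rest of the list. The DMSO mean was 41.4 FPKM for AMOTL2, 28.3 for TEAD1, 27.4 for LATS2, 25.9 for AJUBA and 25.5 for YAP1. The lowest were WWTR1 at 5.69 ± 0.261 FPKM (SD, n = 3) and ANKRD1 at 5.54 ± 0.432 FPKM (SD, n = 3). The DMSO samples of neighbours in this order overlapped for TEAD1 and LATS2, for AJUBA and YAP1 and for WWTR1 and ANKRD1, and for no other neighbours.

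**Figure D1:**
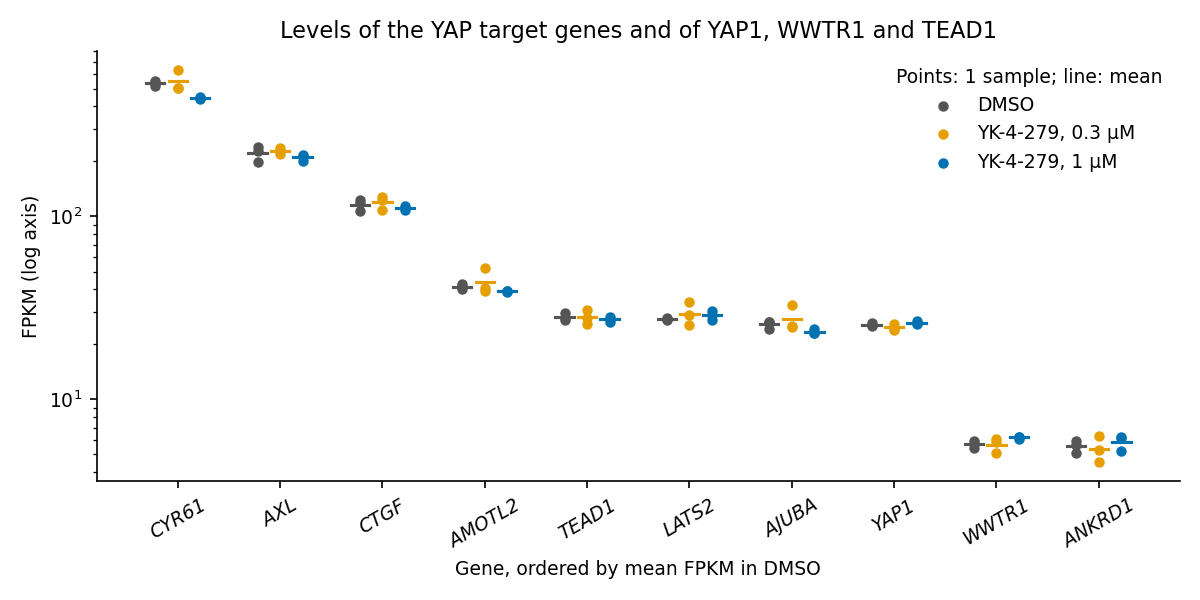
FPKM (log axis) of the 10 genes in the 9 samples, with 1 point per sample coloured by group and a line at each group's mean. CYR61 lies at the top at 436 to 629 FPKM and WWTR1 and ANKRD1 at the bottom under 6.3 FPKM, and the groups of a gene lie close together on this scale.

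The first question was whether 1 μM of YK-4-279 altered these genes after 24 h. Counts of the 6 samples were compared by edgeR's quasi-likelihood test, and a gene was called when its p, adjusted by Benjamini-Hochberg over the 15617 genes tested, was under 0.05. Of the 10 members 1 was called, CYR61, against 17.6% of all genes tested (9.95% called lower), and with a change of over 1.5-fold also required 0 were called, against 5.51%. The groups did not overlap for 3 members, CYR61, AMOTL2 and WWTR1, against 37.4% of genes tested. An unadjusted p under 0.05 was found for 2 members, CYR61 and AJUBA, against 31.9%. The median log2 fold change was −0.07 over the members and −0.0083 over all genes tested. The shares called and not overlapping were thus no higher in the list than among all genes.

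CYR61 (ENSG00000142871, chr1:85580761-85583962, plus strand) encodes a secreted protein that binds integrins. Its levels were 1329, 1260 and 1347 CPM in the 3 DMSO samples, 1248, 1250 and 1555 CPM at 0.3 μM, and 1080, 1092 and 1116 CPM at 1 μM. All 3 samples at 1 μM lay below all others, and 1 sample at 0.3 μM lay above all others. Against DMSO the log2 fold change at 1 μM was −0.29 (SE 0.0501, 95% interval −0.39 to −0.18, edgeR adjusted p = 0.001636), with 3 of 3 treated samples lower. The adjusted p lay between 0.0002617 and 0.01708 when each of the 6 samples was left out of the edgeR fit in turn. The call was lost only with limma on log2(FPKM + 1) without a filter on low values, at an adjusted p of 0.1204, and with the 1.5-fold requirement.

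CTGF (ENSG00000118523, chr6:131948176-131951373, minus strand) encodes a secreted protein of the same family, and its promoter window holds the 3 TEAD copies printed above. Its levels were 278, 250 and 290 CPM in DMSO, 303, 287 and 256 CPM at 0.3 μM, and 264, 257 and 270 CPM at 1 μM. The 3 groups overlapped. At 1 μM the log2 fold change was −0.08 (SE 0.0601, 95% interval −0.20 to 0.05, edgeR adjusted p = 0.4225). CYR61 and CTGF were compared within samples by the log2 ratio of their CPM. That ratio was 2.27 ± 0.0581 in DMSO and 2.06 ± 0.0268 at 1 μM (SD, n = 3), a difference of −0.21 that left the groups without overlap. The two-sided exact permutation test gave p = 0.1, the smallest that 3 against 3 samples allow, and 0.3 after adjustment over the 6 ratio comparisons made. The ratio was lower in all 3 samples at 1 μM than in any DMSO sample, and this test could not have passed 0.05 at any values. At 0.3 μM the same ratio spread over 2.04, 2.12 and 2.60.

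ANKRD1 (ENSG00000148677, chr10:90912096-90921276, minus strand), a nuclear and sarcomeric ankyrin repeat protein, was the least abundant member, with 164 to 223 counts. It was at 10.1, 11.7 and 11.1 CPM in DMSO, 12.5, 9.09 and 10.5 CPM at 0.3 μM, and 12.2, 10.5 and 12.5 CPM at 1 μM. The groups overlapped in part, with 2 of the 3 samples at 1 μM above all DMSO samples, and the interval was the widest of the list, at a log2 fold change of 0.07 at 1 μM (SE 0.118, 95% interval −0.19 to 0.32, edgeR adjusted p = 0.7404). The 3 classical readouts thus gave 1 call, and ANKRD1 pointed the other way from CYR61 and CTGF without passing.

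AXL (ENSG00000167601, chr19:41219203-41261766, plus strand), the receptor for GAS6, was at 1239, 1024 and 1184 CPM in DMSO, 1143, 1179 and 1232 CPM at 0.3 μM, and 1045, 1124 and 1120 CPM at 1 μM. DMSO replicate 2 was the lowest of all 9 samples. The log2 fold change at 1 μM was −0.09 (SE 0.0666, edgeR adjusted p = 0.3634). Without DMSO replicate 2 it was −0.16, with an adjusted p of 0.03648, so this 1 control sample decides the call. That sample was also the lowest of the 9 for CTGF, and it was the lowest for 19.3% and the highest for 14.5% of all genes tested. The antisense gene AC011510.1 overlaps AXL, but it averaged 32.7 counts. The other genes overlapping members averaged under 10 counts.

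None of the targets that act back on the pathway passed the test at 1 μM. AMOTL2 (ENSG00000114019, chr3:134355874-134375479, minus strand), an angiomotin that holds YAP1 at cell junctions, was at 256, 240 and 249 CPM in DMSO, 246, 234 and 317 CPM at 0.3 μM, and 234, 234 and 238 CPM at 1 μM. All 3 samples at 1 μM lay just below the DMSO samples, and the log2 fold change of −0.10 (SE 0.0528, edgeR adjusted p = 0.2007) did not pass. AJUBA (ENSG00000129474, chr14:22971174-22982642, minus strand), a LIM protein that binds and restrains LATS kinases, was at 160, 145 and 160 CPM in DMSO, 150, 151 and 198 CPM at 0.3 μM, and 138, 146 and 139 CPM at 1 μM. The groups overlapped through DMSO replicate 2. AJUBA was the member nearest to CYR61 in the test, with a log2 fold change of −0.16 (SE 0.0598, 95% interval −0.29 to −0.03, edgeR adjusted p = 0.08156), and it passed without DMSO replicate 2 (−0.20, adjusted p = 0.01977). LATS2 (ENSG00000150457, chr13:20973032-21061547, minus strand), the kinase that is itself a YAP target, was at 152, 152 and 155 CPM in DMSO, 143, 161 and 191 CPM at 0.3 μM, and 153, 163 and 171 CPM at 1 μM. Its groups overlapped, and its log2 fold change at 1 μM was 0.06 (SE 0.0583, edgeR adjusted p = 0.5407).

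Neither the coactivators nor their partner passed the test. YAP1 (ENSG00000137693, chr11:102110461-102233423, plus strand) was at 160, 163 and 160 CPM in DMSO, 154, 164 and 152 CPM at 0.3 μM, and 166, 163 and 171 CPM at 1 μM. The samples at 1 μM overlapped those in DMSO, and the log2 fold change was 0.02 (SE 0.0535, 95% interval −0.10 to 0.13, edgeR adjusted p = 0.8476). WWTR1 (ENSG00000018408, chr3:149517235-149736714, minus strand) was at 46.0, 49.97 and 48.1 CPM in DMSO, 43.2, 49.7 and 51.1 CPM at 0.3 μM, and 51.8, 52.8 and 53.0 CPM at 1 μM. All 3 samples at 1 μM lay above all others, but the log2 fold change of 0.10 (SE 0.0669, edgeR adjusted p = 0.3106) did not pass. The log2 ratio of WWTR1 to YAP1 in CPM went from −1.75 ± 0.0464 in DMSO to −1.66 ± 0.0315 at 1 μM (SD, n = 3), with an exact permutation p of 0.1 and 0.3 after adjustment. TEAD1 (ENSG00000187079, chr11:12674591-12944483, plus strand) was at 281, 305 and 287 CPM in DMSO, 269, 289 and 319 CPM at 0.3 μM, and 291, 274 and 287 CPM at 1 μM. Its groups overlapped, and the log2 fold change at 1 μM was −0.06 (SE 0.0556, edgeR adjusted p = 0.4756).

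**Figure D2:**
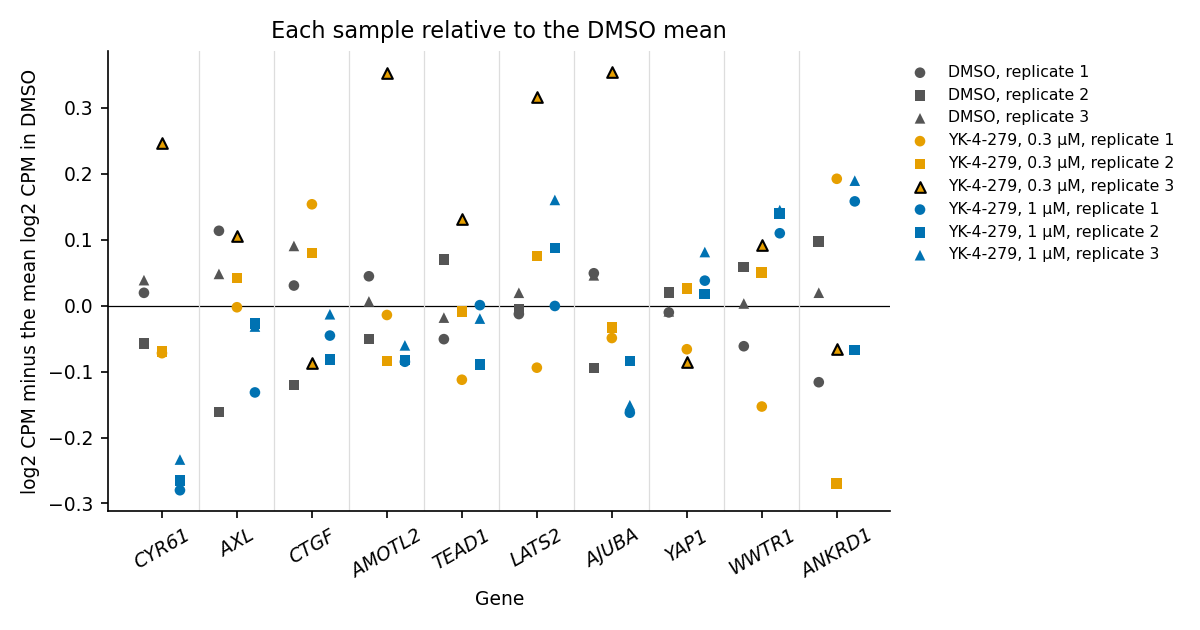
Each sample's log2 CPM minus the mean log2 CPM in DMSO (vertical axis) for the 10 genes (horizontal axis), with 1 point per sample, coloured by group and shaped by replicate number. CYR61 is low in the 3 samples at 1 μM, and replicate 3 at 0.3 μM, outlined in black, is the highest of the 9 samples for CYR61, AMOTL2, AJUBA, LATS2 and TEAD1.

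The second question was whether the lower dose altered the genes, and the same DMSO samples serve as controls here. Of the 10 members 0 were called in the edgeR test, against 0% of the 15762 genes tested, and 0 had an unadjusted p under 0.05, against 3.77% of all genes, while DESeq2 called 1 gene of the table. The members' log2 fold changes ran from −0.05 for YAP1 to 0.10 for LATS2, with 6 higher and 4 lower and edgeR adjusted p of 0.9951 to 0.9984. The groups did not overlap for 0 of 10 members, against 8.47% of genes tested. CYR61, the gene that fell at 1 μM, was at a log2 fold change of 0.03 (SE 0.075, 95% interval −0.12 to 0.19).

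Replicate 3 at 0.3 μM stood apart from its group in these genes. It was the highest of the 9 samples for 5 of 10 members, CYR61, AMOTL2, AJUBA, LATS2 and TEAD1, and for 14.7% of all genes tested. It was the lowest of the 9 samples for YAP1, and for 14.1% of genes tested. Without it the log2 fold changes at 0.3 μM against DMSO turned from 0.03 to −0.08 for CYR61, from 0.09 to −0.06 for AMOTL2, from 0.09 to −0.05 for AJUBA and from 0.10 to −0.01 for LATS2. The direction of these 4 genes at 0.3 μM therefore rests on 1 sample.

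The third question was whether the doses differed. Between 1 μM and 0.3 μM 1 of 10 members was called in the edgeR test, CYR61 again, against 12.6% of the 15583 genes tested (6.75% called lower and 5.85% higher). With 1.5-fold also required 0 were called, against 3.25%, and 3 members, CYR61, AJUBA and AXL, had an unadjusted p under 0.05, against 27.6%. The groups did not overlap for 4 members, CYR61, AJUBA, AXL and WWTR1, against 31.9% of genes. CYR61 had a log2 fold change of −0.31 (SE 0.0706, 95% interval −0.46 to −0.16, edgeR adjusted p = 0.009201), and −0.20 without replicate 3 at 0.3 μM, where the adjusted p was 0.0151. In the 3 limma fits on FPKM the CYR61 call was lost, at adjusted p of 0.1396 to 0.2719. The next members were AJUBA at −0.24 (edgeR adjusted p = 0.07859), AXL at −0.12 (adjusted p = 0.1552) and AMOTL2 at −0.18 (adjusted p = 0.1814). These were lower at 1 μM without passing. AJUBA passed without replicate 1 at 0.3 μM (−0.31, adjusted p = 0.03555) and was at −0.10 without replicate 3. WWTR1 and YAP1 were at 0.12 and 0.08, with edgeR adjusted p of 0.3283 and 0.42. The 1 μM samples serve in this comparison and in the first, so the repeat of the CYR61 call is not independent of it.

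**Figure D3:**
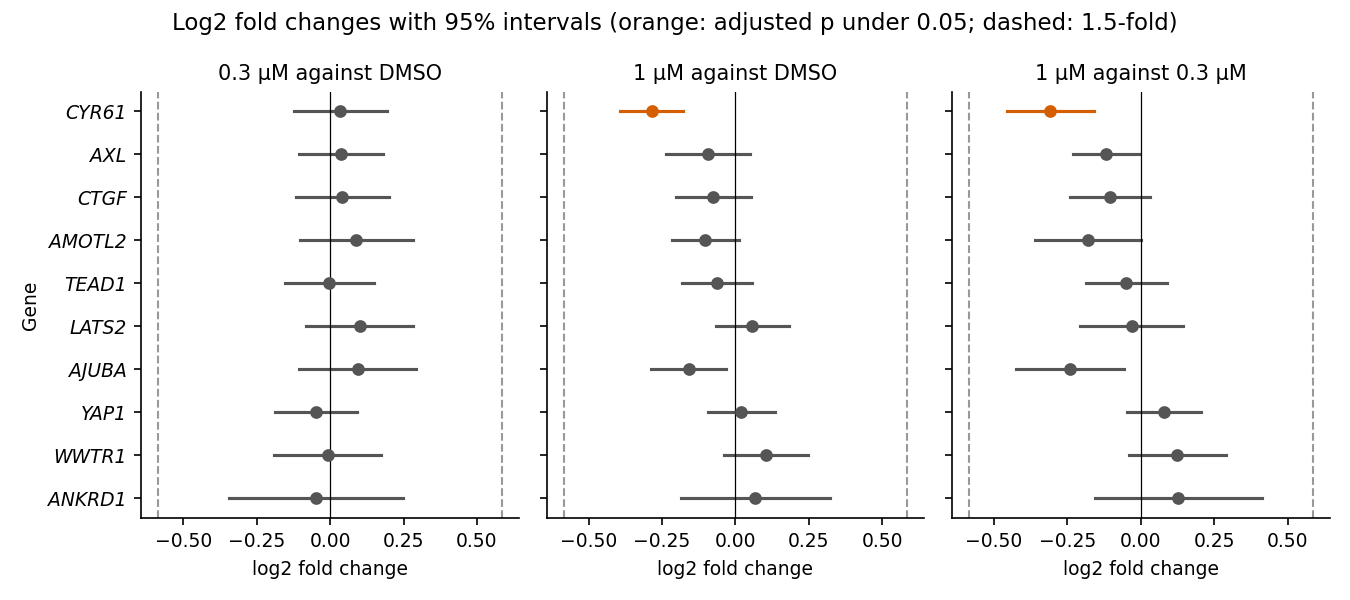
Log2 fold change (edgeR) of the 10 genes in the 3 comparisons, with bars for the 95% interval, orange for genes called at an adjusted p under 0.05, grey for the others and dashed lines at 1.5-fold. CYR61 is the only gene in orange, at −0.29 and −0.31, and every interval stays between the dashed lines.

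Genes whose CPM across the 9 samples was most like CYR61 or CTGF were taken from 9417 protein-coding genes with a mean of at least 10 CPM, by Pearson's r of log2 CPM. This is a description over 9 samples that share their groups and libraries. The highest of 9417 values of r over so few samples can be high without any link between the genes. For CYR61 they were TIMP3, an inhibitor of metalloproteinases, at r = 0.99, the transcriptional repressor BCL6 at 0.98 and YY1AP1 at 0.98. TIMP3 went from a mean of 1185 CPM in DMSO to 998 CPM at 1 μM, and its r was 0.99 also without replicate 3 at 0.3 μM. For CTGF they were THBS1, a matricellular protein and itself a listed YAP target, at r = 0.96, FUK at 0.93 and PYGO2 at 0.92. CYR61 and CTGF thus had no gene in common among their nearest 3, and their r with each other was 0.09. That low r leans on replicate 3 at 0.3 μM, which was the highest of the 9 samples for CYR61 but at place 8 for CTGF. The r of the pair was not taken without that sample, so it does not show that CYR61 and CTGF vary apart.

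The rest of the pathway was described with 4 further lists, set beside the 17.6% called among all genes at 1 μM against DMSO. Of 12 Hippo kinases and adaptors 3 were called, all higher, against 7.67% of genes called higher, and the median log2 fold change of the list was 0.13. LATS1, the paralog of LATS2, rose from 23.1–25.3 to 28.6–30.3 CPM (log2 fold change 0.25, edgeR adjusted p = 0.04528). STK38L, a kinase of the same family, rose from 16.6–19.4 to 23.1–24.3 CPM (0.36, edgeR adjusted p = 0.01568), and MAP4K4, a kinase that can act on LATS, rose by a log2 fold change of 0.16 (edgeR adjusted p = 0.04147). These calls sat near the threshold: between 0 and 6 of the list were called when samples were left out in turn, 0 without DMSO replicate 1, without DMSO replicate 3 or without replicate 2 at 1 μM, and 6 without DMSO replicate 2. LATS1 and MAP4K4 passed only in the last of these fits.

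Of 19 upstream and cytoplasmic regulators 1 was called at 1 μM against DMSO, lower, and the median log2 fold change was −0.02. The count was 0 without replicate 2 or without replicate 3 at 1 μM and 2 without DMSO replicate 2. NF2, the tumour suppressor merlin, was at −0.17 (edgeR adjusted p = 0.1943). Among 7 TEAD and VGLL partners 5 were tested. VGLL1 was at 0 counts in all samples and VGLL2 at 0 to 3 counts, so both were removed by the filter on low counts. The other TEAD genes were expressed at 15.0 FPKM for TEAD2, 15.4 for TEAD3 and 23.5 for TEAD4 in DMSO, and their log2 fold changes at 1 μM were 0.10, −0.04 and 0.07. The TEAD cofactor VGLL3 was the 1 call, lower, from 36.9–41.3 to 31.2–33.7 CPM (−0.26, edgeR adjusted p = 0.03041). It was the only call of the list and was lost in 5 of the 6 fits that left out a sample, all but the fit without DMSO replicate 1. VGLL4, which competes with YAP for TEAD, was at 0.14.

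Other genes listed as YAP or TEAD targets were called in both directions. Of 19 tested 10 were called at 1 μM against DMSO, 4 higher and 6 lower, against 7.67% and 9.95% of all genes, with a median log2 fold change of −0.10. The largest fall was in TGFB2, a TGF-beta ligand, which was at 110 to 115 CPM in DMSO and 72.1 to 76.5 CPM at 1 μM (log2 fold change −0.63, SE 0.0581, edgeR adjusted p = 1.707e-05). It was the only gene of the list to pass 1.5-fold as well. All 3 samples at 1 μM lay below all 3 in DMSO. RBMS3 (−0.45, adjusted p = 0.001064), CCDC80 (−0.37, adjusted p = 0.0007611) and IGFBP3 (−0.34, adjusted p = 0.003377) were lower and FOXF2 (0.53, adjusted p = 0.01622) was higher in the same edgeR fit. The FOXF2 call was lost without replicate 2 at 1 μM. Genes of this list such as TGFB2 are also regulated by other pathways, and the list does not separate these. At 0.3 μM 0 genes of all 4 lists were called in the edgeR test, and 0 had an unadjusted p under 0.05.

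Between 1 μM and 0.3 μM the counts were 0 of 12 for the kinases and adaptors, 1 of 19 for the upstream regulators, 0 of 5 for TEAD and VGLL partners and 7 of 19 for the other targets, against 12.6% of all genes. The upstream gene was RASSF1, a scaffold that binds STK3 and STK4, at a log2 fold change of −0.30 (edgeR adjusted p = 0.04459). It was lost in 5 of the 6 fits that left out a sample, all but the fit without replicate 1 at 0.3 μM. Of the 7 other targets 2 were higher at 1 μM and 5 were lower, TGFB2 (−0.65, edgeR adjusted p = 0.0003955) among them. Without replicate 3 at 1 μM 3 of the 19 were called.

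**Figure D4:**
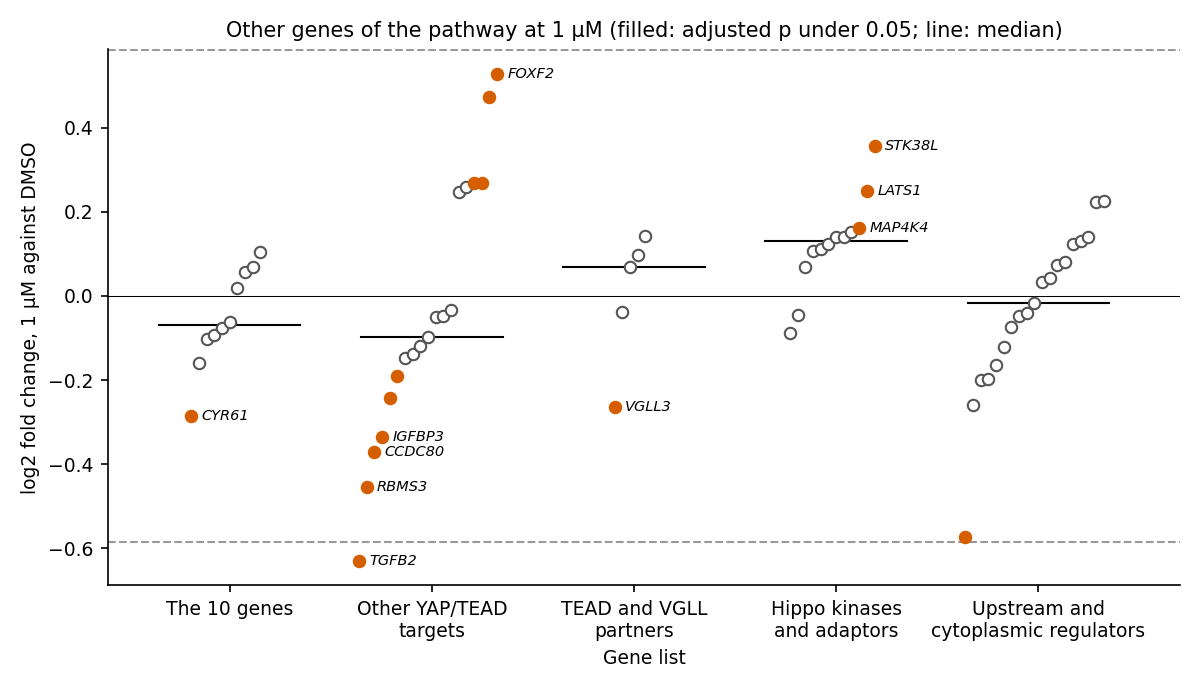
Log2 fold change (edgeR) at 1 μM against DMSO for the 10 members and the tested genes of 4 pathway lists, with 1 point per gene, filled where called at an adjusted p under 0.05, a bar at each list's median and dashed lines at 1.5-fold. Filled points lie on both sides of 0 among the other YAP and TEAD targets, from TGFB2 at −0.63 to FOXF2 at 0.53, and only CYR61 is filled among the members.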

How the data were processed

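Counts per gene and sample and FPKM, which divide by gene length and library size, were deposited by the authors for 9 samples. Per the labels and the study's methods, poly-A RNA was sequenced and reads were aligned to GRCh38. The submitters' processing notes name HISAT2 2.0.5, featureCounts 1.5.0-p3 and DESeq2 1.20.0, whereas the methods name HTseq for counting and 2 biological replicates per condition. The labels give 3 samples. Whether counting used strand is not given in the sources used here. The 10 deposited columns of the authors' comparisons, which hold group means, fold changes and p-values, were not used.

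The counts were tested with edgeR 4.0.16 in R 4.3.3 on the 2 groups compared (filterByExpr with a minimum count of 10, TMM normalisation, quasi-likelihood test, Benjamini-Hochberg over all genes tested). Standard errors were derived from the log2 fold change and the F statistic of the same fit, and 95% intervals from these errors. CPM were scaled by TMM over all 9 samples. Ratios used an exact permutation test and were computed with scipy 1.17.1. DESeq2 1.42.0, limma 3.58.1 on log2(FPKM + 1) or log2(FPKM + 0.1) for genes with a mean of at least 0.1 FPKM, other filters and scalings, a replicate block and leaving out each sample were alternatives. The steps were tested on simulated data. No 2 replicates agreed within sampling noise.

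The members and lists were chosen with earlier results of these data known. Genes named are all members, up to 6 called genes per further list by size of change at 1 μM, pathway genes named for their role, and the 3 genes most like CTGF and CYR61. Some genes that these rules name are not reported here.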

Additional observations from a re-analysis of the deposited data

How the results depend on the processing

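CYR61 kept its direction at 1 μM in every alternative run, but its call needs counts or a filter. At 1 μM against DMSO, members called were 0 with limma without a filter on low values or with 1.5-fold added, and 1 to 3 when each sample was left out. Hippo kinases and adaptors gave 1 with limma on log2(FPKM + 1), and 0 with limma at a pseudocount of 0.1 or with limma without a filter. They gave 0 at 1.5-fold and 0 to 6 with samples left out. Upstream regulators gave 2 with DESeq2, 0 in each limma fit and at 1.5-fold, and 0 to 2 with samples left out. TEAD and VGLL partners gave 0 with DESeq2, no filter, all 9 samples in a single fit, limma or 1.5-fold, and 0 to 1 with samples left out. Other targets gave 5, 6 and 4 in the limma fits, in the same order, 1 at 1.5-fold and 7 to 11 with samples left out.

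Between the doses, members called were 2 with no filter, 0 with limma or 1.5-fold and 1 to 2 with samples left out. Kinases and adaptors gave 3 with DESeq2, 2 with no filter and 0 to 1 with samples left out. Upstream regulators gave 0 with DESeq2, all 9 samples, limma or 1.5-fold and 0 to 1 with samples left out. TEAD and VGLL partners gave 1 with no filter and 0 to 1 with samples left out. Other targets gave 2, 2 and 0 with limma, 1 at 1.5-fold and 3 to 8 with samples left out. At 0.3 μM against DMSO every count stayed at 0. The cause of these changes was not tested.

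Replicate numbers showed no clear pairing of the samples. The deviations of same-numbered samples correlated at −0.09 to 0.157, and those of differently numbered samples at −0.115 to 0.114. With 3 samples per group these values cannot exclude pairing. With the replicate block, members called stayed at 1, 0 and 1, kinases and adaptors fell to 1 at 1 μM, and TEAD and VGLL partners went to 0 at 1 μM and 1 between the doses. Over all genes the block gave 2120 calls in place of 2752 at 1 μM.

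Reversals fell on small differences. At 0.3 μM against DMSO, TEAD1 was 0.0037 with DESeq2, 0.0006 with RLE scaling and 0.0073 with no filter, and WWTR1 0.0005 with no filter. With samples left out, log2 fold changes there ran from −0.0106 to 0.1083 for CTGF, −0.0776 to 0.0907 for CYR61, −0.174 to 0.0592 for ANKRD1, −0.0555 to 0.1742 for AMOTL2, −0.0486 to 0.1667 for AJUBA, −0.0136 to 0.1946 for LATS2, −0.0341 to 0.0931 for AXL, −0.0673 to 0.0562 for TEAD1 and −0.0554 to 0.0643 for WWTR1. Between the doses LATS2 ran from −0.1233 to 0.0779 and TEAD1 from −0.1051 to 0.0115. No member reversed at 1 μM against DMSO, where 146 of 150 values kept their direction and side of the threshold.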
